A study of Drosophila melanogaster with 23 samples.

Results

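Hearts of w1118 flies (Drosophila melanogaster) were compared at 5 weeks and 1 week of age by bulk RNA-seq. w1118 is a laboratory strain with a mutant white gene that is widely used as a control. The comparison takes 8 of the 23 libraries of the series, 4 at each age, chosen by the strain and age in their labels, and every gene of the count table was considered. The labels name no transgene, treatment or sex for these 8 libraries. How many hearts went into a library is not stated, and neither is whether libraries of one age came from separate flies. The p-values therefore rest on the spread among these libraries, which may be technical in part. Of the remaining libraries, those of attp2, another strain, at 1 and 5 weeks (n = 5 each) were used only to test whether an age effect differed between strains. The 5 libraries labelled Lamin C RNAi, expressed from the Hand promoter at 1 week, were not used here. According to the series text, w1118 ageing was sequenced to find genes that could take part in the remodelling of nuclei with age.

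The adult fly heart is a muscular tube on the dorsal side of the abdomen that pumps haemolymph through an open circulation. Its cardiomyocytes hold sarcomeres, ryanodine receptor calcium stores and potassium channels related to those of the mammalian heart. Pericardial nephrocytes, which filter haemolymph, flank the tube, and fat body, oenocytes and haemocytes lie against it, so that a dissected heart carries RNA of these cells too. In such bulk samples, fewer cells of a type and less RNA per cell cannot be told apart. Ageing flies are known for rising expression of antimicrobial peptides and for hearts that lose regular rhythm and contractility.

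Levels below are CPM, read counts scaled to each library's total and corrected with TMM, a normalisation of edgeR. They compare libraries and not genes, because they are not divided by transcript length. A level is given per library in the order 1 to 4, or as mean ± SD (n = 4). A log2 fold change is 5 weeks over 1 week with its standard error (SE). Adjusted p-values are from the two-sided quasi-likelihood test of edgeR with Benjamini-Hochberg adjustment over the 9631 genes tested, and a gene is said to rise or fall where the adjusted p is under 0.05. Positions are 1-based on dm6.

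The libraries held 33433897 to 52489603 counts at 1 week and 21792178 to 48501675 at 5 weeks. The first principal component (38.9% of the variance) separated the ages, and on the second (17.4%) library 4 of each age lay apart from the other 3 of its age. The heart tube markers were present, led by Hand and the pacemaker channel gene Ih, and 12 of the 13 had enough counts to test, Doc2 being near 0. Their summed level, which Hand dominates, was 989 ± 101 CPM at 1 week and 900.3 ± 58.3 CPM at 5 weeks. Of the 12 tested, 2 fell and 0 rose in the edgeR test (1 higher and 6 lower at p under 0.05 before adjustment, 0 and 6 in DESeq2, 0 to 5 lower with 1 library left out), 10 had a negative log2 fold change (median −0.72), and 6 had all older libraries below all younger ones. Of all genes tested, 3.7% fell, 5.21% rose and 7.91% had all older libraries below all younger ones. The part of the amount of heart tube RNA in the changes of sarcomere, channel and transcription factor genes below was not tested. Summed haemocyte markers were 3586 to 4235 CPM at 1 week and 1798 to 2744 CPM at 5 weeks, the older libraries all being lower. Summed nephrocyte, fat body, oenocyte, gut and neuron markers overlapped between the ages. Fat body RNA was present, with the yolk protein gene Yp1, which females express, at 11570.4 to 31355 CPM over the 8 libraries, while roX1, the dosage compensation RNA of males, was at 3.78 to 7.82 CPM. The 13 markers of the male reproductive tract summed to 0.224 to 1.28 CPM at 1 week and 0.125 to 0.273 CPM at 5 weeks.

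**Figure D1:**
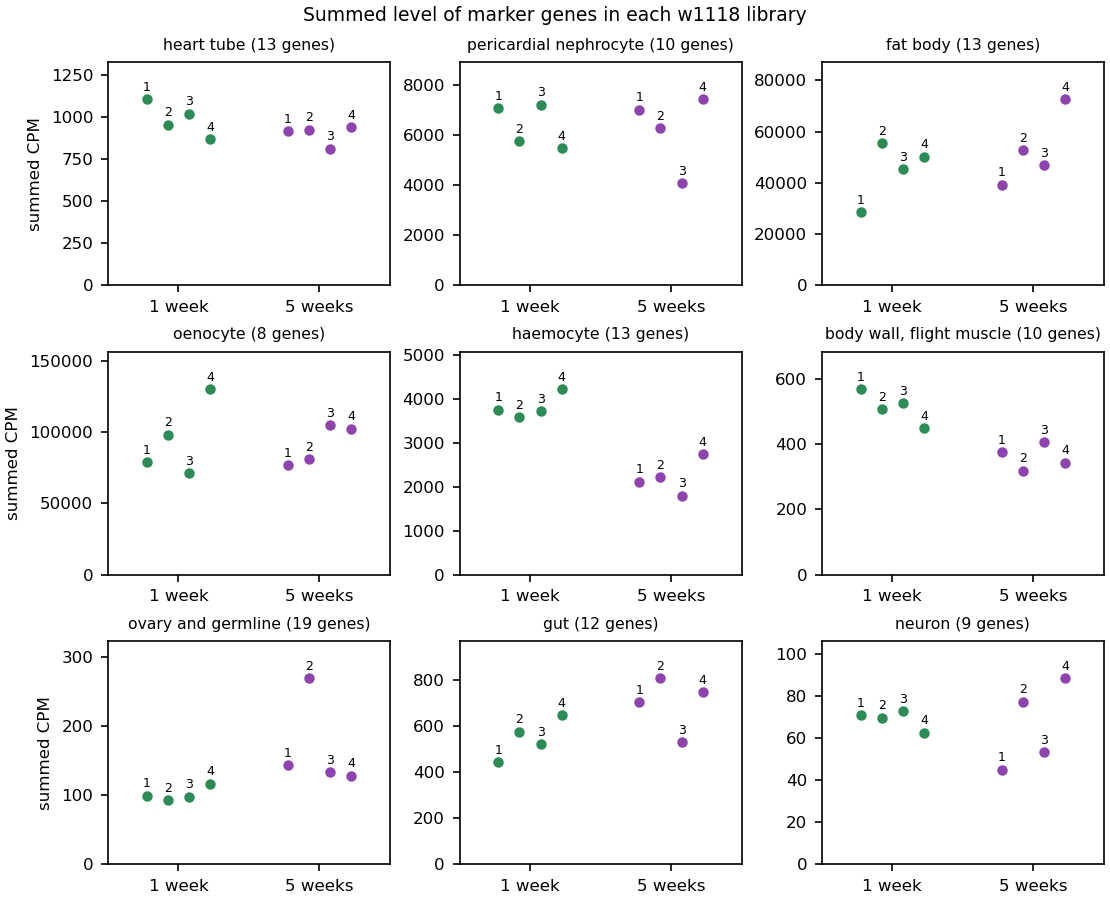
Summed level (CPM) of the genes of 9 marker lists in each w1118 library, with 1 week in green and 5 weeks in purple and the library number above each point. Haemocyte markers run from 1798 to 2744 CPM at 5 weeks, below all 1-week libraries, and ovary and germline markers reach 269 CPM in 5-week library 2.

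Between 1 and 5 weeks, genes of iron storage, bacterial recognition, antimicrobial peptides, glutathione transferases and cytochrome P450 enzymes were among those that rose. Genes of crystal cells and plasmatocytes, myosin and troponin C, the ryanodine receptor and 2 potassium channels were among those that fell, while 1 potassium channel gene rose. In all, 502 of the genes tested rose (5.21%) and 356 fell (3.7%), 858 together (8.91%). The counts given below for gene lists stand against these shares. The increases were larger: 253 of the 502 and 118 of the 356 reached a log2 fold change of 1 in size, and 108 and 43 reached 2. The median log2 fold change of all genes tested was 0.01. The 4 older libraries all lay above or all below the 4 younger ones for 1662 genes (17.3%), 900 upward (9.34%) and 762 downward (7.91%), among them 467 of the genes that rose and 337 of those that fell. Single libraries decided many calls. Leaving out 1-week library 1 left 273 genes that rose and 159 that fell, 1-week library 2 left 174 and 124, and 1-week library 3 left 260 and 172. Leaving out 5-week library 1 left 235 and 194, and 5-week library 2 left 250 and 204. A call is therefore said to rest on a library where the test was not passed without it, followed by the adjusted p without it. Where no library is named, the call held without each of the 8 in turn. Where a gene's 8 library values are given, the ages did not overlap unless overlap is mentioned. Leaving out 1-week library 4 raised the number that fell to 512.

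**Figure D2:**
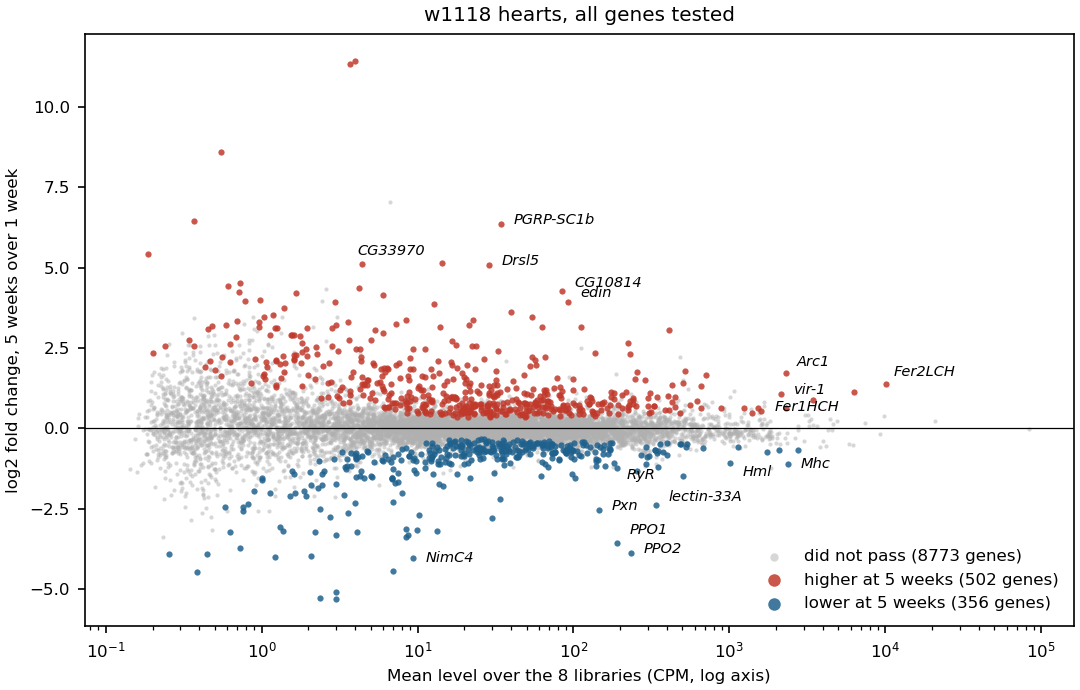
Log2 fold change (5 weeks over 1 week) of each of the 9631 genes tested against its mean level over the 8 libraries (CPM, log axis), with the 502 genes that rose in red, the 356 that fell in blue and the others in grey. The largest changes among genes over 5 CPM belong to PGRP-SC1b and CG33970 upward and to CG17109 and NimC4 downward, and the 2 ferritin genes lie furthest to the right among those labelled as risen.

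The 2 ferritin genes had the largest increases in CPM of all genes that rose. Ferritin is a shell of heavy and light chains that keeps iron in a non-reactive form, and in flies much of it is secreted. The light chain gene Fer2LCH (chromosome 3R from 30387804 to 30390584) was at 6297, 5153, 6786 and 4057 CPM at 1 week and 20168, 15162, 10202 and 12567 CPM at 5 weeks. All older libraries were above all younger ones, 5-week library 1 the highest, and the level rose 2.61-fold (log2 fold change 1.38 ± 0.23, adjusted p = 0.00755). The heavy chain gene Fer1HCH was at 4295, 3844, 4741 and 2976 CPM at 1 week and 11939, 9102, 6525 and 6953 CPM at 5 weeks, again without overlap, and rose 2.18-fold (log2 fold change 1.12 ± 0.22, adjusted p = 0.0142), a call that rested on 1-week library 2 (adjusted p = 0.0572). The 2 genes lie next to each other on opposite strands and their exons share 118 bases, 7.16% of the exon bases of Fer2LCH, where reads could be assigned to either unless strand was used in counting.

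Among other genes of the redox list, those that rose included genes of peroxiredoxins, enzymes that reduce hydrogen peroxide. Of 33 redox genes tested, the ferritins included, 6 rose and 1 fell (0 to 1 lower with 1 library left out), with a median log2 fold change of 0.12. The peroxiredoxin gene Jafrac1 (now Prx2) was at 298, 275, 333 and 302 CPM at 1 week and 737, 645, 505 and 503 CPM at 5 weeks. The ages did not overlap (log2 fold change 0.98 ± 0.15, adjusted p = 0.00492). Gs1, a glutamine synthetase, was at 162, 155, 222 and 249.5 CPM at 1 week and 422, 413, 369 and 477 CPM at 5 weeks and rose 2.13-fold (log2 fold change 1.09 ± 0.17, adjusted p = 0.00553). Prx2540-1 rose from 8.07 ± 1.18 to 22.6 ± 6.34 CPM (log2 fold change 1.48 ± 0.20, adjusted p = 0.00307) and its neighbour Prx2540-2 from 13.4 ± 2.75 to 30.2 ± 9.96 CPM (log2 fold change 1.18 ± 0.25, adjusted p = 0.0203), although the ages overlapped in the latter. The 2 copies are nearly identical and may share reads. The Prx2540-2 call rested on 1-week libraries 1 and 3 and 5-week libraries 1 and 2 (adjusted p 0.0520 to 0.0592). The gene that fell was Keap1, whose product holds back the antioxidant transcription factor Cnc. It was at 119.6, 142, 132 and 163 CPM at 1 week and 83.6, 86.8, 86.5 and 56.04 CPM at 5 weeks. Library 4 was the highest of the younger and the lowest of the older set (log2 fold change −0.83 ± 0.16, adjusted p = 0.0146). Its call rested on 1-week library 2 (adjusted p = 0.0515). The catalase gene Cat (log2 fold change 0.29 ± 0.22, adjusted p = 0.437) and superoxide dismutase gene Sod1 (log2 fold change 0.11 ± 0.17, adjusted p = 0.719) did not pass the test.

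Peptidoglycan recognition proteins bind bacterial cell wall, and the catalytic members cut it and so limit immune signalling. Of 17 such genes and lysozymes tested, 5 rose and 0 fell in the edgeR test (5 higher and 2 lower at p under 0.05 before adjustment, 6 and 1 in DESeq2, 0 to 1 lower with 1 library left out), and the count of 5 was the same without each of the 8 libraries. PGRP-SC1b, an amidase (chromosome 2R from 8713446 to 8715094), was at 0.341, 0.151, 2.27 and 0.352 CPM at 1 week and 77.2, 96.4, 41.2 and 55.4 CPM at 5 weeks. It was close to absent at 1 week outside library 3 (log2 fold change 6.37 ± 0.69, adjusted p = 0.00102), and the log2 fold change was 7.91 without that library. The adjacent PGRP-SC2 was at 78.3, 86.1, 103 and 38.4 CPM at 1 week and 549, 553, 224 and 209.7 CPM at 5 weeks. All older libraries were higher, and 5-week libraries 1 and 2 stood above 3 and 4 (log2 fold change 2.33 ± 0.40, adjusted p = 0.00798). PGRP-SC1a, the third gene of this cluster and a near copy of PGRP-SC1b, had too few counts to test. PGRP-SB1, another amidase (chromosome 3L from 16727299 to 16727989), was at 30.3, 36.6, 57.7 and 56.3 CPM at 1 week and 211, 243, 224 and 234 CPM at 5 weeks. The older libraries hardly differed from each other, and the gene rose 5.04-fold (log2 fold change 2.33 ± 0.21, adjusted p = 3.6e-04). PGRP-SD, a secreted recognition protein, rose from 21.7 ± 6.98 to 83.5 ± 20.2 CPM (log2 fold change 1.95 ± 0.24, adjusted p = 0.00192) and the lysozyme gene LysX from 7.63 ± 2.06 to 28.1 ± 12.7 CPM (log2 fold change 1.88 ± 0.31, adjusted p = 0.00646). In contrast, the signalling receptor gene PGRP-LC (log2 fold change 0.22 ± 0.13, adjusted p = 0.302) and the amidase gene PGRP-LB (log2 fold change 0.26 ± 0.17, adjusted p = 0.365) did not pass.

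Antimicrobial peptides and related induced peptides all had positive log2 fold changes among the 31 tested of 37 found, but most did not pass: 8 rose and 0 fell in the edgeR test (17 higher and 0 lower at p under 0.05 before adjustment, 12 and 0 in DESeq2), and the median was 1.01. The count of 8 was 3 without 1-week libraries 1 or 2 or 5-week libraries 1 or 2 and 5 without 1-week library 3. It was 11 without 1-week library 4 or 5-week library 4 and 12 without 5-week library 3. Drsl5, of the drosomycin family (chromosome 3L from 3316781 to 3317144), was at 1.61, 2.44, 0.946 and 1.601 CPM at 1 week and 65.6, 55.1, 63.7 and 38.6 CPM at 5 weeks. The lowest older library was far above the highest younger one (log2 fold change 5.08 ± 0.29, adjusted p = 2.6e-05). edin, induced by infection, was at 17.01, 8.98, 12.4 and 6.500 CPM at 1 week and 310.3, 167, 141 and 74.6 CPM at 5 weeks. Among the older libraries it was highest in library 1 and lowest in library 4 (log2 fold change 3.94 ± 0.45, adjusted p = 0.00125). Mtk, metchnikowin, was at 99.05, 119, 169.6 and 80.8 CPM at 1 week and 513, 474, 364 and 229 CPM at 5 weeks. The older libraries ranked in the same order and lay above the younger ones (log2 fold change 1.75 ± 0.29, adjusted p = 0.00643). The antifungal gene Drs was at 95.96, 75.3, 109 and 68.1 CPM at 1 week and 1634, 946, 203 and 137 CPM at 5 weeks. Its 5-week libraries 1 and 2 were far above 3 and 4, and all were above the younger ones (log2 fold change 3.07 ± 0.69, adjusted p = 0.0244). Its call rested on 1-week libraries 1, 2 and 3 and 5-week libraries 1 and 2 (adjusted p 0.0571 to 0.0854), and its log2 fold change was 2.28 without 5-week library 1. Dro, drosocin, was at 51.1, 70.2, 107 and 20.7 CPM at 1 week and 638, 534, 251 and 131 CPM at 5 weeks. The order was again the same (log2 fold change 2.64 ± 0.56, adjusted p = 0.0204). The call rested on 1-week libraries 1 and 2 and 5-week libraries 1 and 2 (adjusted p 0.0513 to 0.0659). Def, defensin, was named after its values were seen. It was at 1.33, 2.27, 2.55 and 0.192 CPM at 1 week and 63.7, 24.7, 5.45 and 2.01 CPM at 5 weeks. 5-week library 4 lay below 1-week libraries 2 and 3, so the ages overlapped (log2 fold change 3.86 ± 1.00, adjusted p = 0.0392, resting on 1-week libraries 1, 2, 3 and 4 and 5-week libraries 1 and 2, adjusted p 0.0580 to 0.109). The bomanin genes CG15067 (BomBc2) and CG16836 (BomT2), also chosen after their values were seen, rose from 267 ± 59.6 to 538 ± 149 CPM (log2 fold change 1.01 ± 0.22, adjusted p = 0.0228) and from 94.2 ± 14.8 to 169 ± 48.2 CPM (log2 fold change 0.84 ± 0.20, adjusted p = 0.0280). The BomBc2 call rested on 1-week libraries 1, 2 and 3 and 5-week libraries 1 and 2 (adjusted p 0.0586 to 0.0704), and that of BomT2 on 1-week libraries 1, 2 and 3 and 5-week libraries 1 and 2 (adjusted p 0.0571 to 0.0900). The peptide gene with the most counts, AttC, an attacin, was at 602, 723, 883 and 419 CPM at 1 week and 1631, 2584, 1083 and 624 CPM at 5 weeks. Its ages overlapped and it did not pass (log2 fold change 1.17 ± 0.39, adjusted p = 0.0870).

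Of 27 genes tested of the Toll and Imd pathways, which control these peptides, 1 rose and 3 fell (3 and 3 in DESeq2, 0 to 1 higher and 1 to 3 lower with 1 library left out), against 5.21% and 3.7% of all genes tested. The receptor gene Toll-7 was at 11.98, 14.3, 11.4 and 14.6 CPM at 1 week and 5.82, 5.97, 6.87 and 7.27 CPM at 5 weeks. Every older library was below every younger one (log2 fold change −1.01 ± 0.14, adjusted p = 0.00294). pll, the kinase Pelle, fell from 80.9 ± 9.01 to 46.4 ± 11.1 CPM (log2 fold change −0.80 ± 0.17, adjusted p = 0.0200, resting on 1-week libraries 1 and 2, adjusted p 0.0556 to 0.0700) and psh, the protease Persephone, from 67.8 ± 4.68 to 49.2 ± 7.75 CPM (log2 fold change −0.46 ± 0.13, adjusted p = 0.0472, resting on 1-week libraries 1, 2, 3 and 4 and 5-week libraries 1, 3 and 4, adjusted p 0.0521 to 0.121). pirk, an inhibitor of Imd signalling that is itself induced by the pathway, rose from 255 ± 29.5 to 354 ± 24.4 CPM (log2 fold change 0.47 ± 0.12, adjusted p = 0.0386, resting on 1-week libraries 1, 2 and 3 and 5-week libraries 1, 2, 3 and 4, adjusted p 0.0527 to 0.134). The transcription factor genes Rel (log2 fold change −0.47 ± 0.28, adjusted p = 0.317) and dl (log2 fold change −0.45 ± 0.33, adjusted p = 0.426) did not pass.

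Of 20 JAK-STAT pathway, Turandot and thioester protein genes tested, 2 rose and 1 fell (2 and 3 in DESeq2, 1 to 2 lower with 1 library left out), against 5.21% and 3.7% of all genes tested. upd2, which encodes a ligand of the pathway, was at 9.88, 10.7, 11.6 and 6.82 CPM at 1 week and 58.1, 52.2, 47.4 and 17.17 CPM at 5 weeks. 5-week library 4 was the lowest of its age but above all younger ones (log2 fold change 2.16 ± 0.33, adjusted p = 0.00503). vir-1, a virus-induced target of the pathway (chromosome 2L from 12403270 to 12423439), was at 1511, 1300.3, 1551 and 1213 CPM at 1 week and 2964, 3371, 2717 and 2587 CPM at 5 weeks and rose 2.09-fold, with all older libraries above all younger ones (log2 fold change 1.06 ± 0.14, adjusted p = 0.00232). The thioester protein gene Tep1 fell from 2.48 ± 0.709 to 0.568 ± 0.193 CPM (log2 fold change −2.10 ± 0.36, adjusted p = 0.00798). The pathway's transcription factor gene Stat92E (log2 fold change 0.16 ± 0.14, adjusted p = 0.513) and its feedback inhibitor gene Socs36E (log2 fold change 0.03 ± 0.31, adjusted p = 0.9699) did not pass, nor did the stress peptide gene TotA (log2 fold change −0.34 ± 0.31, adjusted p = 0.5301).

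Several genes of haemocytes, the blood cells of the fly, fell. Of the 13 haemocyte markers, all tested, 1 rose and 6 fell (0 to 1 higher with 1 library left out), and the count of 6 was the same without each of the 8 libraries in turn. Crystal cells make the prophenoloxidases, which drive melanin formation at wounds. PPO2 (chromosome 2R from 9042261 to 9044709) was at 406, 384, 438 and 525 CPM at 1 week and 43.1, 40.2, 32.3 and 4.72 CPM at 5 weeks, a 14.6-fold difference, with library 4 the highest at 1 week and the lowest at 5 weeks (log2 fold change −3.87 ± 0.55, adjusted p = 0.00347). PPO1 (chromosome 2R from 17887220 to 17889973) was at 337, 282, 331 and 447 CPM at 1 week and 46.9, 47.8, 20.5 and 3.62 CPM at 5 weeks. As for PPO2, 1-week library 4 was the highest and 5-week library 4 the lowest (log2 fold change −3.56 ± 0.63, adjusted p = 0.00886). CG17109, in the melanization list, was at 12.05, 9.63, 14.3 and 17.16 CPM at 1 week and 1.46, 1.102, 0.122 and 0 CPM at 5 weeks. All older libraries were lower, and 5-week library 4 had no count (log2 fold change −4.45 ± 0.77, adjusted p = 0.00798; −5.06 without 5-week library 2). lz, the transcription factor of crystal cells, was at 6.94, 6.32, 6.77 and 2.79 CPM at 1 week and 2.23, 4.39, 3.23 and 0.268 CPM at 5 weeks. Library 4 was the lowest at each age, the ages overlapped and the test was not passed (log2 fold change −1.17 ± 0.60, adjusted p = 0.247). Of 20 genes in that list, 1 rose and 3 fell (2 and 3 in DESeq2, 1 to 2 higher with 1 library left out), the one that rose being Jafrac1, described with the redox genes.

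Plasmatocytes are the phagocytes among haemocytes and also deposit matrix. Of 26 plasmatocyte and phagocytosis genes tested, 1 rose and 7 fell (0 to 1 higher with 1 library left out). NimC4, a receptor for apoptotic cells (chromosome 2L from 14047582 to 14048863), was at 27.4, 13.2, 12.8 and 16.8 CPM at 1 week and 0.864, 0.727, 0.549 and 2.12 CPM at 5 weeks. Every older library was far below the younger ones (log2 fold change −4.03 ± 0.43, adjusted p = 9.7e-04; −4.67 without 5-week library 4). The peroxidasin gene Pxn was at 239, 244, 223 and 285 CPM at 1 week and 37.5, 38.4, 24.2 and 71.00 CPM at 5 weeks. The fall held in every older library (log2 fold change −2.53 ± 0.28, adjusted p = 0.00122). The C-type lectin gene lectin-33A was at 585, 345, 563 and 764 CPM at 1 week and 174, 83.7, 62.6 and 114.9 CPM at 5 weeks. Here too the ages were apart (log2 fold change −2.38 ± 0.33, adjusted p = 0.00326). Hml, haemolectin, the standard marker of these cells, was at 1294, 1381, 1352 and 1496 CPM at 1 week and 526, 619, 507 and 936 CPM at 5 weeks. Library 4 was the highest at both ages, and the ages did not overlap (log2 fold change −1.09 ± 0.19, adjusted p = 0.00885). He, hemese, fell from 6.28 ± 1.87 to 2.23 ± 0.868 CPM (log2 fold change −1.49 ± 0.30, adjusted p = 0.0179). Other markers of the same cells did not pass. The phagocytic receptor gene NimC1 was at 238, 172, 176 and 229.7 CPM at 1 week and 182, 175, 135 and 216 CPM at 5 weeks. The ages overlapped (log2 fold change −0.21 ± 0.17, adjusted p = 0.483), and the receptor gene eater (log2 fold change −0.46 ± 0.17, adjusted p = 0.114) and the transcription factor gene srp (log2 fold change −0.06 ± 0.18, adjusted p = 0.873) had smaller differences than those above. crq, a CD36-like receptor for apoptotic cells, went the other way, from 347 ± 59.6 to 553 ± 70.4 CPM (log2 fold change 0.67 ± 0.15, adjusted p = 0.0249). This call rested on 1-week libraries 2 and 3 and 5-week libraries 1, 2 and 4 (adjusted p 0.0527 to 0.0938). Ppn, the matrix protein papilin, was at 3763, 3415, 3426 and 2922 CPM at 1 week and 1627, 1836, 2180.2 and 2764 CPM at 5 weeks. 5-week library 4 was close to the younger set (log2 fold change −0.69 ± 0.17, adjusted p = 0.0369). The call rested on 1-week libraries 1, 2 and 3 and 5-week libraries 1, 2 and 3 (adjusted p 0.0538 to 0.105).

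**Figure D3:**
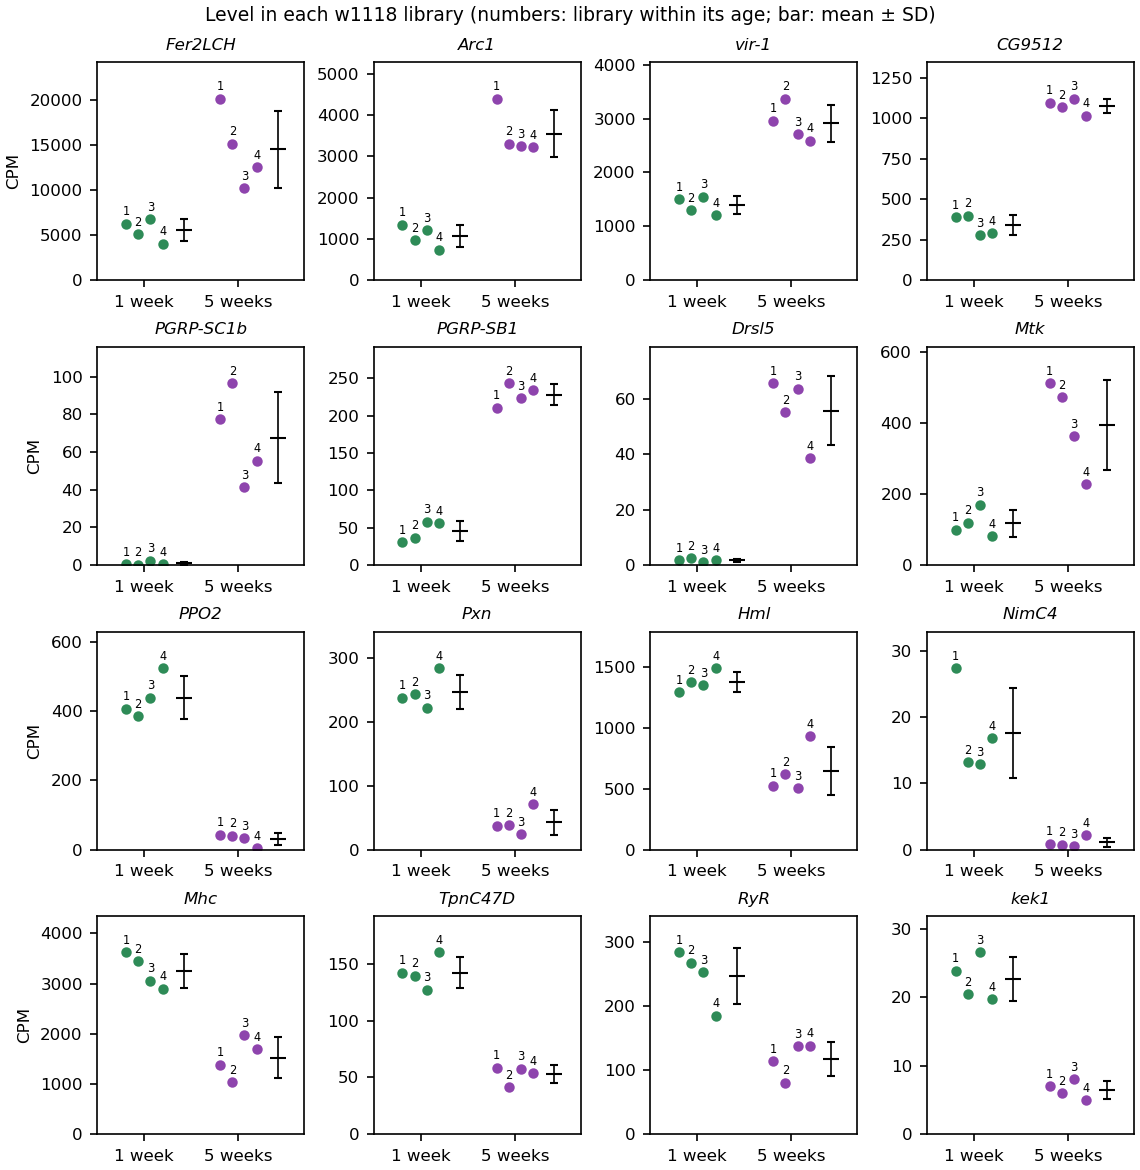
Level (CPM) of 16 genes in each w1118 library, 1 week in green and 5 weeks in purple, with the library number above each point and the mean ± SD (n = 4) as a black bar beside each age; each panel has its own axis from 0. The 2 ages are apart in every panel, for example Fer2LCH at 4057 to 6786 against 10202 to 20168 CPM and PPO2 at 384 to 525 against 4.72 to 43.1 CPM.

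Several sarcomere genes fell, 4 of them in the thick filament, the myosin array of the sarcomere. Of 9 thick filament genes tested, 4 fell and 0 rose in the edgeR test (0 higher and 5 lower at p under 0.05 before adjustment, 0 and 5 in DESeq2), all 9 had a negative log2 fold change, and the median was −0.46. The count of 4 was 2 without 1-week libraries 1, 2 or 3 or 5-week libraries 2 or 4, and 5 without 1-week library 4 or 5-week library 3. Mhc, the myosin heavy chain gene (chromosome 2L from 16766566 to 16788766), was at 3619, 3442, 3059 and 2898 CPM at 1 week and 1382, 1037, 1976 and 1695 CPM at 5 weeks. 5-week library 2 was the lowest, and all older libraries were below the younger ones (log2 fold change −1.10 ± 0.19, adjusted p = 0.00875). Unc-89, the fly obscurin, which organises the M-line, was at 563, 531, 462 and 379.7 CPM at 1 week and 173, 139, 265 and 255 CPM at 5 weeks. The same library was the lowest (log2 fold change −1.22 ± 0.22, adjusted p = 0.00974). Mlc1, the alkali light chain of myosin, fell from 824 ± 78.3 to 538 ± 84.03 CPM (log2 fold change −0.62 ± 0.14, adjusted p = 0.0258) and Prm, paramyosin, from 627 ± 47.5 to 421 ± 69.8 CPM (log2 fold change −0.58 ± 0.14, adjusted p = 0.0323). The Mlc1 call rested on 1-week libraries 1, 2 and 3 and 5-week libraries 2 and 4 (adjusted p 0.0507 to 0.0803) and the Prm call on 1-week libraries 1, 2 and 3 and 5-week libraries 1, 2 and 4 (adjusted p 0.0650 to 0.0968). The regulatory light chain gene Mlc2 did not pass (log2 fold change −0.31 ± 0.15, adjusted p = 0.2400).

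Of 14 thin filament genes tested, 2 fell and 0 rose in the edgeR test (0 higher and 7 lower at p under 0.05 before adjustment, 0 and 3 in DESeq2, 1 to 4 lower with 1 library left out), with a median of −0.39. TpnC47D, a calcium-binding troponin C (chromosome 2R from 11273845 to 11275286), was at 143, 140.0, 127.5 and 160.3 CPM at 1 week and 58.8, 41.5, 57.7 and 53.98 CPM at 5 weeks, a 2.69-fold difference with narrow spread at both ages (log2 fold change −1.43 ± 0.14, adjusted p = 5.6e-04). A second troponin C gene, TpnC25D, fell from 91.7 ± 8.74 to 54.4 ± 16.8 CPM (log2 fold change −0.76 ± 0.20, adjusted p = 0.0439), a call that rested on 1-week libraries 1, 2, 3 and 4 and 5-week libraries 2 and 4 (adjusted p 0.0674 to 0.111). The muscle actin gene Act57B was at 2686, 2337, 2334 and 2454 CPM at 1 week and 1928, 1364, 2137 and 1563 CPM at 5 weeks. The ages did not overlap, but the test was not passed (log2 fold change −0.49 ± 0.15, adjusted p = 0.0775). Reads of actin genes may be shared among their near-identical copies. Of 13 genes of the Z-disc, which anchors thin filaments, 1 fell and 0 rose in the edgeR test (0 higher and 8 lower at p under 0.05 before adjustment, 0 and 5 in DESeq2), with a median of −0.38. Actn, alpha-actinin, fell from 177 ± 15.7 to 118 ± 22.9 CPM (log2 fold change −0.58 ± 0.15, adjusted p = 0.0400), had a call that rested on 1-week libraries 1, 2 and 3 and 5-week libraries 1, 2 and 4 (adjusted p 0.0575 to 0.111), and shares 15.7% of its exon bases with the gene east. The Z-disc count of 1 was 0 without 1-week libraries 1, 2 or 3 or 5-week libraries 1, 2 or 4 and 5 without 5-week library 3. The list written for body wall and flight muscle, another possible source of sarcomere RNA, summed to 449.9 to 570.0 CPM at 1 week and 319 to 407 CPM at 5 weeks. Most of that sum came from flr, Act87E and tnc, so it does not measure such muscle alone. The flight muscle actin gene Act88F was at 0.968, 0.389, 0.454 and 11.6 CPM at 1 week and 0.728, 0.707, 0.6502 and 1.59 CPM at 5 weeks. The ages overlapped, and 1-week library 4 was the highest. fln and TpnC4, of the same muscle, had under 0.4 CPM outside that library (3.87 and 2.02 CPM in it). The members of the list that fell were tnc, an integrin ligand described with the matrix below, and flr, an actin-turnover gene named after its values were seen (log2 fold change −0.65 ± 0.15, adjusted p = 0.0249, resting on 1-week libraries 1, 2 and 3 and 5-week library 2, adjusted p 0.0655 to 0.0785). The part of body wall muscle in the sarcomere result was not tested.

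The ryanodine receptor gene and 2 potassium channel genes fell as well, while 1 potassium channel gene rose. RyR, the ryanodine receptor that releases calcium from the sarcoplasmic reticulum (chromosome 2R from 8860364 to 8888097), was at 284, 268, 253 and 185 CPM at 1 week and 114, 80.7, 138 and 138 CPM at 5 weeks. The older libraries were all lower (log2 fold change −1.07 ± 0.20, adjusted p = 0.0101). Ca-alpha1D, a voltage-gated calcium channel named after its values were seen, was at 77.8, 70.4, 66.2 and 52.9 CPM at 1 week and 30.4, 28.1, 43.04 and 53.3 CPM at 5 weeks. 5-week library 4 reached the level of 1-week library 4, an overlap (log2 fold change −0.79 ± 0.21, adjusted p = 0.0419). Its call rested on 1-week libraries 1, 2 and 3 and 5-week libraries 1, 2 and 3 (adjusted p 0.0526 to 0.116). SERCA, the pump that returns calcium to the store, was at 1541, 1636, 1383 and 1433 CPM at 1 week and 884, 844, 1160.2 and 1229 CPM at 5 weeks. The ages were apart, but the adjusted p was just over the threshold (log2 fold change −0.54 ± 0.15, adjusted p = 0.0509). Of 15 calcium handling genes, 2 fell and 0 rose in the edgeR test (2 higher and 7 lower at p under 0.05 before adjustment, 1 and 7 in DESeq2, 0 to 1 higher with 1 library left out). The count of 2 was 1 without 1-week libraries 1, 2 or 3 or 5-week library 2 and 5 without 5-week library 4. Among 17 potassium channel genes, 1 rose and 2 fell (1 and 4 in DESeq2, 0 to 1 higher with 1 library left out). CG8713 (sandman), a potassium leak channel gene, was at 50.4, 45.7, 34.7 and 48.8 CPM at 1 week and 18.7, 15.01, 22.3 and 12.01 CPM at 5 weeks. There was no overlap between the ages (log2 fold change −1.40 ± 0.20, adjusted p = 0.00326). slo, the calcium-activated BK channel, was at 15.2, 16.7, 14.8 and 15.5 CPM at 1 week and 6.91, 6.49, 11.4 and 7.58 CPM at 5 weeks. Of the older libraries, 3 was the nearest to the younger set (log2 fold change −0.94 ± 0.18, adjusted p = 0.0119). sei, the fly counterpart of the human ERG channel, rose from 8.099 ± 1.72 to 13.7 ± 1.45 CPM (log2 fold change 0.76 ± 0.16, adjusted p = 0.0211), a call that rested on 1-week libraries 2 and 3 and 5-week libraries 1 and 2 (adjusted p 0.0574 to 0.0691). Of the sodium pump beta subunit genes, nrv2 fell from 82.4 ± 3.68 to 58.4 ± 10.7 CPM (log2 fold change −0.50 ± 0.14, adjusted p = 0.0478, resting on 1-week libraries 1, 2, 3 and 4 and 5-week libraries 1, 2 and 4, adjusted p 0.0542 to 0.125) and nrv3 rose from 17.5 ± 1.76 to 28.4 ± 7.37 CPM (log2 fold change 0.70 ± 0.17, adjusted p = 0.0341, resting on 1-week libraries 1, 2, 3 and 4 and 5-week libraries 2 and 4, adjusted p 0.0508 to 0.113). Ih, the pacemaker channel, was at 390.0, 369, 347 and 277 CPM at 1 week and 173, 163, 259 and 272 CPM at 5 weeks. The ages were apart but the threshold was not passed (log2 fold change −0.67 ± 0.19, adjusted p = 0.0574).

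Among 18 cardiac transcription factor genes tested, 3 fell and 0 rose in the edgeR test (0 higher and 7 lower at p under 0.05 before adjustment, 0 and 5 in DESeq2, 1 to 5 lower with 1 library left out), with a median of −0.36. bap, a homeobox gene best known from visceral muscle (chromosome 3R from 21388880 to 21390449), was at 32.8, 30.5, 22.4 and 22.8 CPM at 1 week and 11.5, 8.77, 15.02 and 14.9 CPM at 5 weeks. All 4 older libraries were lower (log2 fold change −1.11 ± 0.20, adjusted p = 0.00904). Its neighbour tin, the fly Nkx2-5 and the gene that specifies the heart, was at 11.8, 10.5, 11.1 and 12.5 CPM at 1 week and 5.05, 3.82, 8.88 and 7.402 CPM at 5 weeks. 5-week library 3 was the closest to the younger set (log2 fold change −0.86 ± 0.23, adjusted p = 0.0471). H15, a T-box gene of the Tbx20 type, was at 101, 96.01, 81.03 and 88.1 CPM at 1 week and 46.2, 40.5, 69.6 and 59.5 CPM at 5 weeks. Again library 3 was the highest of the older ones (log2 fold change −0.76 ± 0.17, adjusted p = 0.0231). Both of these calls depended on single libraries: that of tin rested on 1-week libraries 1, 2, 3 and 4 and 5-week libraries 1, 2 and 4 (adjusted p 0.0572 to 0.112) and that of H15 on 1-week libraries 1 and 2 and 5-week libraries 1 and 2 (adjusted p 0.0518 to 0.0756). Of the others, Hand, a heart and nephrocyte gene, was at 525, 403, 503 and 408 CPM at 1 week and 635, 657, 399 and 501 CPM at 5 weeks. The ages overlapped (log2 fold change 0.25 ± 0.18, adjusted p = 0.397), and neither it nor svp, which marks the ostia cells (log2 fold change 0.10 ± 0.21, adjusted p = 0.803), passed. Of 18 genes of the nuclear lamina and of the proteins that link nuclei to the cytoskeleton, 1 fell and 0 rose in the edgeR test (3 higher and 7 lower at p under 0.05 before adjustment, 0 and 3 in DESeq2, 0 to 3 higher and 1 to 2 lower with 1 library left out). klar, which connects nuclei to microtubules, was at 115.04, 106, 113 and 126 CPM at 1 week and 68.9, 70.1, 85.02 and 77.6 CPM at 5 weeks. No older library reached the younger range (log2 fold change −0.61 ± 0.11, adjusted p = 0.0101). LamC, the A-type lamin gene that the series knocks down in other hearts, was at 246 to 277 CPM at 1 week and 190.0 to 207 CPM at 5 weeks. The ages did not overlap, and the adjusted p was just over the threshold (log2 fold change −0.37 ± 0.10, adjusted p = 0.05001). It passed with DESeq2, with the size factors of DESeq2 and with a minimum mean of 5 CPM, but not when any 1 of the 8 libraries was left out. Of 30 heterochromatin and Polycomb genes, 0 rose and 0 fell in the edgeR test (0 higher and 5 lower at p under 0.05 before adjustment, 0 and 0 in DESeq2, 0 to 1 lower with 1 library left out), and 22 had a negative log2 fold change (median −0.11).

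Genes of mitochondrial respiration mostly had small negative log2 fold changes, and how many were called depended on the tool. Of 33 complex I genes tested, 0 rose and 0 fell in the edgeR test (0 higher and 15 lower at p under 0.05 before adjustment, 0 and 1 in DESeq2), while 29 had a negative log2 fold change (median −0.23) and 11 had all older libraries below all younger ones, against 7.91% of all genes tested. Of 10 complex III and cytochrome c genes, 2 fell and 0 rose in the edgeR test (0 higher and 5 lower at p under 0.05 before adjustment, 0 and 5 in DESeq2, 0 to 1 lower with 1 library left out), and 5 had all older libraries lower. The core subunit genes UQCR-C1 and UQCR-C2 fell (log2 fold change −0.48 ± 0.13, adjusted p = 0.0472, and log2 fold change −0.50 ± 0.13, adjusted p = 0.0432). The first call rested on 1-week libraries 1, 2, 3 and 4 and 5-week libraries 1, 2 and 4 (adjusted p 0.0632 to 0.152) and the other on each of the 8 libraries (adjusted p 0.0599 to 0.138). Of 9 complex IV genes, 0 rose and 0 fell in the edgeR test (0 higher and 3 lower at p under 0.05 before adjustment, 0 and 0 in DESeq2), with a median of −0.20. Of 17 ATP synthase and carrier genes, 1 fell and 0 rose in the edgeR test (0 higher and 9 lower at p under 0.05 before adjustment, 0 and 6 in DESeq2, 0 to 1 lower with 1 library left out), and all 17 log2 fold changes were negative (median −0.29), 12 of them with all older libraries below all younger ones. The member that fell, Ant2, an adenine nucleotide carrier, was low (3.84 ± 0.327 to 1.97 ± 0.417 CPM, log2 fold change −0.96 ± 0.22, adjusted p = 0.0264), had a call that rested on 1-week libraries 1, 2 and 3 and 5-week library 1 (adjusted p 0.0509 to 0.0872), and shares 7.098% of its exon bases with sesB, which has far more counts. Of 21 genes of the TCA cycle and complex II, 3 fell and 0 rose in the edgeR test (0 higher and 9 lower at p under 0.05 before adjustment, 0 and 7 in DESeq2, 1 to 3 lower with 1 library left out), and 9 had all older libraries lower. l(1)G0156 (Idh3a), a subunit of the NAD-dependent isocitrate dehydrogenase, was at 211, 213, 193 and 204 CPM at 1 week and 123, 127, 142 and 148 CPM at 5 weeks. The spread was narrow at each age and the ages were apart (log2 fold change −0.60 ± 0.11, adjusted p = 0.00904). The other 2, Acon (mAcon1, aconitase; log2 fold change −0.49 ± 0.13, adjusted p = 0.0418) and CG5214 (log2 fold change −0.45 ± 0.12, adjusted p = 0.0475), had calls that rested on 1-week libraries 1, 2, 3 and 4 and 5-week libraries 1, 2 and 4 (adjusted p 0.0567 to 0.123) and on each of the 8 libraries (adjusted p 0.0656 to 0.1397).

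Genes of fuel use were covered by 4 lists, whose counts stand against the 8.91% of all genes tested that were called. Of 15 glycolysis genes, 0 rose and 0 fell in the edgeR test (0 higher and 2 lower at p under 0.05 before adjustment, 0 and 1 in DESeq2, 0 to 1 lower with 1 library left out), with a median of −0.13. Of 16 fatty acid oxidation genes, 0 rose and 0 fell in the edgeR test (0 higher and 1 lower at p under 0.05 before adjustment, 0 and 0 in DESeq2), with a median of 0.00. Of 10 glycogen, trehalose and phosphagen genes, 2 fell and 0 rose in the edgeR test (0 higher and 3 lower at p under 0.05 before adjustment, 0 and 3 in DESeq2, 0 to 2 lower with 1 library left out): Treh, trehalase, which releases glucose from the main haemolymph sugar, fell from 409 ± 81.8 to 256 ± 25.5 CPM (log2 fold change −0.67 ± 0.15, adjusted p = 0.0251), and GlyP, glycogen phosphorylase, from 571 ± 42.1 to 409.7 ± 44.7 CPM (log2 fold change −0.48 ± 0.12, adjusted p = 0.0369). The calls rested on 1-week libraries 2 and 3 and 5-week libraries 1 and 2 (adjusted p 0.0501 to 0.0662) and on 1-week libraries 1, 2 and 3 and 5-week libraries 1, 2 and 4 (adjusted p 0.0588 to 0.102). Of 23 lipid genes, 1 rose and 1 fell (0 to 1 higher and 0 to 1 lower with 1 library left out). Lsd-2, the perilipin that coats lipid droplets and protects them from lipases, was at 1817, 2211, 2069.9 and 2552 CPM at 1 week and 1074, 1364, 1425 and 1339 CPM at 5 weeks. The highest older level was below the lowest younger one (log2 fold change −0.73 ± 0.15, adjusted p = 0.0154, resting on 1-week library 2, adjusted p = 0.0581). Mtp, which loads lipoproteins, rose from 72.7 ± 15.9 to 126 ± 34.6 CPM (log2 fold change 0.80 ± 0.21, adjusted p = 0.0456, resting on 1-week libraries 1, 2 and 3 and 5-week libraries 1, 2, 3 and 4, adjusted p 0.0501 to 0.1101). fit, a secreted peptide of the female fat body, was at 20.3, 20.9, 22.6 and 21.3 CPM at 1 week and 74.5, 111, 60.05 and 125 CPM at 5 weeks. The younger libraries hardly differed, and all older ones were higher (log2 fold change 2.12 ± 0.22, adjusted p = 8.1e-04). The summed fat body markers overlapped between the ages, at 28541 to 55513 CPM at 1 week and 39317 to 72589 CPM at 5 weeks.

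**Figure D4:**
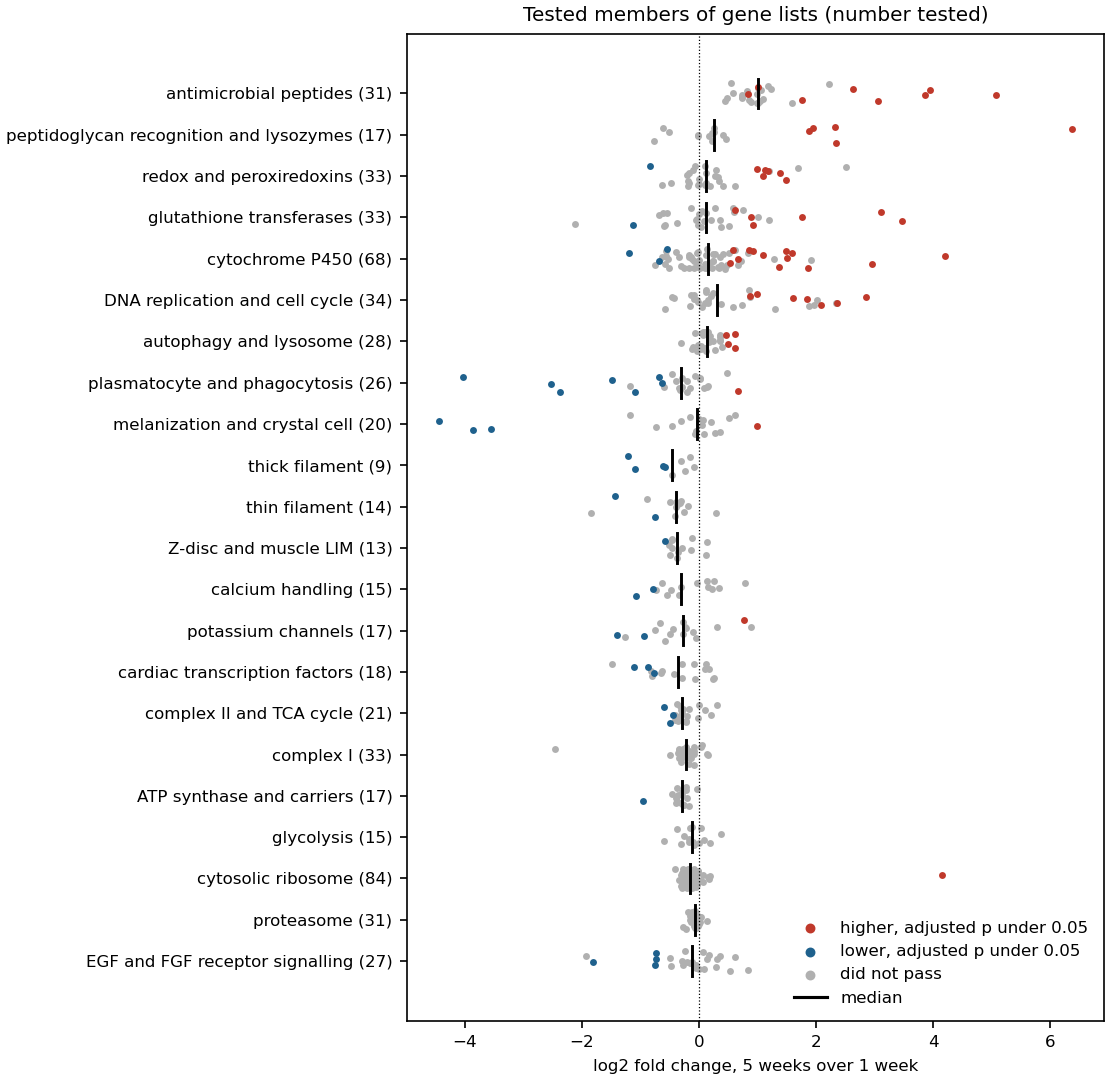
Log2 fold change (5 weeks over 1 week) of every tested member of 22 gene lists, 1 point a gene, with genes that rose in red, genes that fell in blue, others in grey and the median as a black bar; the number tested is in brackets. The antimicrobial peptides lie to the right of 0 with a median of 1.01 and the thick filament genes to the left with a median of −0.46, while complex I and ribosomal proteins form narrow groups just below 0.

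Detoxification enzymes changed in both directions. Of 33 glutathione transferase genes, 6 rose and 1 fell (0 to 2 lower with 1 library left out), and the count of 6 was 1 without 1-week libraries 1 or 2 or 5-week libraries 1 or 2 and 2 without 1-week library 3. It was 7 without 5-week library 3 and 9 without 1-week library 4. The Delta class forms a cluster of 11 genes on chromosome 3R from 12364776 to 12385624, in which neighbours differed. GstD5 was at 6.31, 6.08, 6.85 and 16.8 CPM at 1 week and 179, 96.9, 36.1 and 82.9 CPM at 5 weeks. Among the older libraries, 1 was the highest and 3 the lowest (log2 fold change 3.47 ± 0.50, adjusted p = 0.00392). The next gene, GstD6, 555 bases away, was at 0.323, 0.541, 0.132 and 1.44 CPM at 1 week and 8.78, 5.67, 1.73 and 4.14 CPM at 5 weeks. Libraries 1 and 2 were the highest older ones, and the ages did not overlap (log2 fold change 3.11 ± 0.69, adjusted p = 0.0228; 3.92 without 1-week library 4, resting on 1-week libraries 1 and 2 and 5-week libraries 1 and 2, adjusted p 0.0542 to 0.0796). GstD4 was at 0.574, 0.584, 0.568 and 0.832 CPM at 1 week and 2.91, 3.24, 1.38 and 1.12 CPM at 5 weeks. Again libraries 1 and 2 were the highest at 5 weeks (log2 fold change 1.76 ± 0.42, adjusted p = 0.0295, resting on 1-week libraries 1, 2 and 3 and 5-week libraries 1 and 2, adjusted p 0.0792 to 0.0936). GstD2, in the same cluster and on the same strand, moved the other way, from 29.8, 37.2, 77.9 and 51.97 CPM at 1 week to 24.1, 29.4, 21.9 and 14.8 CPM at 5 weeks, below the lowest younger library in each (log2 fold change −1.13 ± 0.30, adjusted p = 0.0419). That call rested on 1-week libraries 2, 3 and 4 and 5-week libraries 1, 2, 3 and 4 (adjusted p 0.0556 to 0.0940). The member with the most counts, GstD1, did not pass (log2 fold change 0.36 ± 0.18, adjusted p = 0.239). These genes are similar in sequence, and no source used here says how reads that fit several of them were counted. Outside the cluster, GstS1 rose from 170.4 ± 23.1 to 315 ± 93.6 CPM (log2 fold change 0.88 ± 0.21, adjusted p = 0.0278, resting on 1-week libraries 1, 2 and 3 and 5-week libraries 1 and 2, adjusted p 0.0512 to 0.1003).

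Of 68 cytochrome P450 genes tested, 13 rose and 3 fell (2 to 5 lower with 1 library left out), with a median of 0.15. The count of 13 was 6 without 1-week libraries 1 or 2, 7 without 1-week library 3, 8 without 5-week libraries 2 or 4 and 16 without 1-week library 4. Cyp6w1, named after its values were seen, had the largest gain in CPM, at 79.9, 114.7, 159 and 249 CPM at 1 week and 331, 502, 481 and 383 CPM at 5 weeks. The younger libraries were spread, but all lay below the older ones (log2 fold change 1.49 ± 0.31, adjusted p = 0.0185). The call rested on 1-week library 2 (adjusted p = 0.0683). Cyp305a1 was at 3.08, 3.61, 1.87 and 2.63 CPM at 1 week and 9.004, 7.71, 10.1 and 13.7 CPM at 5 weeks. 5-week library 4 was the highest (log2 fold change 1.86 ± 0.24, adjusted p = 0.00232). Cyp9h1 rose from 5.53 ± 1.99 to 16.7 ± 4.03 CPM (log2 fold change 1.59 ± 0.26, adjusted p = 0.00692) and Cyp6a16 from 0.174 ± 0.164 to 3.16 ± 1.600 CPM (log2 fold change 4.21 ± 0.79, adjusted p = 0.0119). Cyp4e1 was at 70.9, 108, 65.5 and 139.8 CPM at 1 week and 47.98, 36.6, 39.6 and 44.03 CPM at 5 weeks. All older libraries were lower and close together (log2 fold change −1.19 ± 0.23, adjusted p = 0.0136). Cyp12a5, of a mitochondrial family, fell from 53.5 ± 4.75 to 33.5 ± 2.53 CPM (log2 fold change −0.68 ± 0.11, adjusted p = 0.00503). Cyp4g1, the oenocyte enzyme of hydrocarbon synthesis and the gene with the most counts, was at 63297 to 114786 CPM at 1 week and 70263 to 94872 CPM at 5 weeks (log2 fold change −0.02 ± 0.20, adjusted p = 0.961).

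Genes of protein folding, synthesis and turnover differed by class. Of 26 chaperone genes, 4 fell and 0 rose in the edgeR test (6 higher and 6 lower at p under 0.05 before adjustment, 3 and 4 in DESeq2, 0 to 4 higher with 1 library left out). CG7409, a small heat shock protein gene, was at 3.998, 5.71, 3.65 and 8.55 CPM at 1 week and 1.32, 1.56, 1.46 and 0.783 CPM at 5 weeks. In 1-week library 4 it was highest, in 5-week library 4 lowest (log2 fold change −2.09 ± 0.33, adjusted p = 0.00576). Hsc70-1 was at 9.95, 9.73, 8.63 and 11.3 CPM at 1 week and 3.14, 2.87, 6.096 and 4.34 CPM at 5 weeks. 5-week library 3 was the highest of the older set, still below the younger one (log2 fold change −1.26 ± 0.23, adjusted p = 0.0106). Its relative Hsc70-2 was at 29.3, 22.7, 27.1 and 30.5 CPM at 1 week and 19.6, 13.2, 16.9 and 12.9 CPM at 5 weeks. The ages were likewise apart (log2 fold change −0.81 ± 0.16, adjusted p = 0.0137). l(2)efl, a small heat shock protein of muscle, fell from 435 ± 52.6 to 264 ± 59.9 CPM (log2 fold change −0.72 ± 0.17, adjusted p = 0.0308), a call that rested on 1-week libraries 1, 2 and 3 and 5-week libraries 2 and 4 (adjusted p 0.0541 to 0.0899). The constitutive chaperone gene Hsc70-4 did not pass (log2 fold change −0.07 ± 0.13, adjusted p = 0.796). Of 28 autophagy and lysosome genes, 4 rose and 0 fell in the edgeR test (8 higher and 1 lower at p under 0.05 before adjustment, 5 and 0 in DESeq2), the count of 4 being 0 without 1-week library 2 or 5-week library 1 and 1 without 1-week libraries 1 or 3 or 5-week libraries 2 or 4. The protease gene CtsB1, cathepsin B, rose from 981 ± 53.6 to 1504 ± 315 CPM (log2 fold change 0.62 ± 0.16, adjusted p = 0.0401, resting on 1-week libraries 1, 2, 3 and 4 and 5-week libraries 1, 2 and 4, adjusted p 0.0514 to 0.136). cathD, cathepsin D, rose from 1166 ± 93.7 to 1609 ± 185 CPM (log2 fold change 0.46 ± 0.13, adjusted p = 0.0466, resting on 1-week libraries 1, 2 and 3 and 5-week libraries 1, 2 and 4, adjusted p 0.0902 to 0.155). The membrane protein gene Lamp1 rose from 698 ± 30.4 to 1070.1 ± 180.4 CPM (log2 fold change 0.62 ± 0.14, adjusted p = 0.0259, resting on 1-week libraries 1, 2 and 3 and 5-week libraries 1, 2 and 4, adjusted p 0.0592 to 0.0918), and Atg3, an autophagy enzyme, from 78.2 ± 4.64 to 109.7 ± 6.82 CPM (log2 fold change 0.49 ± 0.10, adjusted p = 0.0183, resting on 1-week library 2 and 5-week library 1, adjusted p 0.0509 to 0.0765). Of 31 proteasome genes, 0 rose and 0 fell in the edgeR test (0 higher and 0 lower at p under 0.05 before adjustment, 0 and 0 in DESeq2). Cytosolic ribosomal protein genes mostly had small negative log2 fold changes, with 77 of 84 negative (median −0.15), and 1 rose and 0 fell in the edgeR test (1 higher and 8 lower at p under 0.05 before adjustment, 1 and 3 in DESeq2, 0 to 1 higher with 1 library left out), the one that rose being the germline paralogue RpS5b. Of 33 aminoacyl-tRNA synthetase genes, 2 fell and 0 rose in the edgeR test (0 higher and 9 lower at p under 0.05 before adjustment, 0 and 7 in DESeq2, 1 to 6 lower with 1 library left out). AsnRS, which charges the asparagine tRNA, was at 194, 189.5, 231 and 156.1 CPM at 1 week and 77.04, 82.9, 124 and 60.7 CPM at 5 weeks. No overlap was seen, 5-week library 3 being the nearest (log2 fold change −1.16 ± 0.21, adjusted p = 0.0102). LeuRS fell from 107 ± 1.94 to 73.9 ± 13.6 CPM (log2 fold change −0.54 ± 0.14, adjusted p = 0.0387, resting on 1-week libraries 1, 2 and 3 and 5-week libraries 1 and 2, adjusted p 0.0682 to 0.104).

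Of 27 EGF and FGF receptor pathway genes, 4 fell and 0 rose in the edgeR test (4 higher and 6 lower at p under 0.05 before adjustment, 2 and 6 in DESeq2, 0 to 1 higher with 1 library left out), and the count of 4 was 1 without 1-week libraries 1, 2 or 3 and 5 without 5-week library 3. kek1, an inhibitor of the EGF receptor (chromosome 2L from 12817000 to 12822787), was at 23.9, 20.4, 26.6 and 19.7 CPM at 1 week and 7.003, 6.01, 8.01 and 4.96 CPM at 5 weeks, a 3.495-fold difference (log2 fold change −1.81 ± 0.17, adjusted p = 4.8e-04). sty, Sprouty, was at 191, 182, 186 and 129 CPM at 1 week and 83.8, 118, 113 and 98.7 CPM at 5 weeks. 1-week library 4 was the lowest of its age but above the older libraries (log2 fold change −0.74 ± 0.16, adjusted p = 0.0211). aop, an ETS repressor downstream of Ras, fell from 94.7 ± 19.6 to 57.3 ± 6.62 CPM (log2 fold change −0.73 ± 0.16, adjusted p = 0.0248). The sty call rested on 1-week libraries 1, 2 and 3 (adjusted p 0.0573 to 0.0708) and the aop call on 1-week libraries 1, 2 and 3 and 5-week library 1 (adjusted p 0.0593 to 0.0819). The fourth gene, grk, encodes a ligand and shares 12.3% of its exon bases with Akap200 on the opposite strand, which has more counts (log2 fold change −0.74 ± 0.16, adjusted p = 0.0227, resting on 1-week libraries 1, 2 and 3 and 5-week library 2, adjusted p 0.0625 to 0.0683). Egfr itself was at 45.2, 74.5, 67.3 and 94.5 CPM at 1 week and 85.9, 109.5, 137 and 168 CPM at 5 weeks. The ages overlapped and the test was not passed (log2 fold change 0.83 ± 0.25, adjusted p = 0.0640). E(spl)mbeta-HLH, a Notch target (chromosome 3R from 26005046 to 26006023), was at 18.8, 17.1, 20.4 and 14.1 CPM at 1 week and 2.36, 2.06, 3.54 and 2.93 CPM at 5 weeks. The younger libraries were all several times above the older ones (log2 fold change −2.69 ± 0.19, adjusted p = 1.1e-04). brk, the repressor of Dpp targets, was at 6.72, 12.1, 8.78 and 8.55 CPM at 1 week and 3.87, 4.76, 3.84 and 5.099 CPM at 5 weeks. 1-week library 2 was the highest, and the ages were apart (log2 fold change −1.04 ± 0.20, adjusted p = 0.0123). neur, which activates Notch ligands, fell from 31.7 ± 8.28 to 17.9 ± 2.18 CPM (log2 fold change −0.83 ± 0.18, adjusted p = 0.0209, resting on 1-week library 2 and 5-week library 1, adjusted p 0.05004 to 0.0607), and daw, an activin-like ligand, from 266 ± 38.97 to 114 ± 63.8 CPM (log2 fold change −1.22 ± 0.31, adjusted p = 0.0366, resting on 1-week libraries 1, 2 and 3 and 5-week libraries 1, 2 and 4, adjusted p 0.0747 to 0.0977). Of 21 Notch genes, 2 fell and 0 rose in the edgeR test (1 higher and 4 lower at p under 0.05 before adjustment, 0 and 3 in DESeq2, 1 to 4 lower with 1 library left out), and of 28 Dpp, activin and Wnt genes, 2 fell and 0 rose in the edgeR test (3 higher and 5 lower at p under 0.05 before adjustment, 0 and 4 in DESeq2, 0 to 1 higher and 1 to 3 lower with 1 library left out). Of all genes tested, 3.7% fell and 5.21% rose.

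Hormone and peptide genes gave a few separate changes. Pal2, a lyase that completes peptide amidation (chromosome 2R from 23688077 to 23690838), was at 25.7, 16.64, 27.1 and 19.7 CPM at 1 week and 233, 197, 90.9 and 278 CPM at 5 weeks. 5-week library 3 was the lowest of its age, yet above all younger ones (log2 fold change 3.16 ± 0.32, adjusted p = 8.1e-04). Phm, the enzyme that acts before it, was at 236, 213, 239 and 233 CPM at 1 week and 402, 408, 289 and 388 CPM at 5 weeks. The same library was again the lowest older one (log2 fold change 0.69 ± 0.13, adjusted p = 0.0137, resting on 1-week library 2, adjusted p = 0.0628). Of 26 peptide processing and neuropeptide genes, 2 rose and 1 fell (2 and 2 in DESeq2, 1 to 2 higher and 0 to 2 lower with 1 library left out), against 5.21% and 3.7% of all genes tested. The one that fell was the receptor gene Proc-R (log2 fold change −0.78 ± 0.16, adjusted p = 0.0190, resting on 1-week libraries 1 and 2, adjusted p 0.0567 to 0.0642). Jheh3, an epoxide hydrolase that degrades juvenile hormone, was at 13.9, 14.1, 11.9 and 17.96 CPM at 1 week and 42.1, 30.4, 42.1 and 32.05 CPM at 5 weeks and rose 2.53-fold (log2 fold change 1.34 ± 0.16, adjusted p = 0.00155), the only one of 26 ecdysone and juvenile hormone genes to pass the edgeR test. Ilp6, an insulin-like peptide of the fat body, was at 17.6, 19.1, 26.1 and 22.3 CPM at 1 week and 26.2, 46.4, 45.3 and 55.2 CPM at 5 weeks. 5-week library 1 barely cleared the younger set (log2 fold change 1.03 ± 0.21, adjusted p = 0.0189). The call rested on 1-week libraries 1 and 2 (adjusted p 0.0504 to 0.0688). ImpL2, a secreted protein that binds insulin-like peptides, was at 2730.1, 2713, 2419 and 2604 CPM at 1 week and 623, 906, 2208 and 684 CPM at 5 weeks. Libraries 1, 2 and 4 at 5 weeks were far below the younger ones and library 3 only slightly, and the test was not passed (log2 fold change −1.24 ± 0.36, adjusted p = 0.0581). Pdk1, a kinase of insulin signalling, fell from 436 ± 89.8 to 253 ± 57.4 CPM (log2 fold change −0.78 ± 0.19, adjusted p = 0.0339, resting on 1-week library 2 and 5-week libraries 1, 2 and 3, adjusted p 0.0643 to 0.107).

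Matrix genes changed in both directions. Of 26 tested, 2 rose and 3 fell (2 and 5 in DESeq2, 1 higher and 1 to 6 lower with 1 library left out), against 5.21% and 3.7% of all genes tested, and the median was −0.30. Besides Pxn and Ppn, named with the haemocytes, tnc (tenectin, an integrin ligand) fell from 85.5 ± 16.02 to 41.04 ± 13.6 CPM (log2 fold change −1.06 ± 0.24, adjusted p = 0.0261, resting on 1-week libraries 1, 2 and 3 and 5-week library 1, adjusted p 0.0642 to 0.0854). nolo, an ADAMTS-like matrix gene, was at 0.663, 0.519, 0.795 and 0.3202 CPM at 1 week and 7.69, 4.199, 2.11 and 7.65 CPM at 5 weeks. 5-week library 3 was the nearest to the younger set (log2 fold change 3.20 ± 0.45, adjusted p = 0.00349). The protease inhibitor gene Timp rose from 401 ± 38.3 to 557 ± 42.7 CPM (log2 fold change 0.47 ± 0.12, adjusted p = 0.0350, resting on each of the 8 libraries, adjusted p 0.0518 to 0.108). The collagen IV genes Col4a1 (log2 fold change −0.33 ± 0.16, adjusted p = 0.228) and vkg (log2 fold change −0.34 ± 0.15, adjusted p = 0.193) did not pass. Of 34 integrin and adhesion genes, 3 fell and 0 rose in the edgeR test (3 higher and 10 lower at p under 0.05 before adjustment, 3 and 7 in DESeq2, 0 to 1 higher and 1 to 6 lower with 1 library left out), against 3.7% that fell and 5.21% that rose of all genes tested. ItgaPS5, an integrin alpha chain, fell from 18.3 ± 8.03 to 6.83 ± 1.54 CPM (log2 fold change −1.42 ± 0.30, adjusted p = 0.0199, resting on 1-week library 2 and 5-week library 1, adjusted p 0.0551 to 0.0572), and sli, the guidance ligand Slit that also shapes the heart lumen, from 41.03 ± 1.28 to 23.1 ± 6.48 CPM (log2 fold change −0.83 ± 0.18, adjusted p = 0.0199, resting on 1-week library 2 and 5-week library 2, adjusted p 0.0571 to 0.0658). The third, unc-5, a netrin receptor, had ages that overlapped (log2 fold change −1.43 ± 0.37, adjusted p = 0.0388, resting on 1-week libraries 1 and 3 and 5-week libraries 1, 2 and 3, adjusted p 0.0729 to 0.108). vari, a scaffold of septate junctions, was at 194, 194, 199 and 162 CPM at 1 week and 105, 109, 85.4 and 71.1 CPM at 5 weeks. The ages did not overlap (log2 fold change −1.01 ± 0.15, adjusted p = 0.00461). It was the only one of 23 junction genes to pass the edgeR test. Of 121 cuticle protein genes found, 28 could be tested and 3 fell and 0 rose in the edgeR test (2 higher and 4 lower at p under 0.05 before adjustment, 0 and 4 in DESeq2, 0 to 1 higher with 1 library left out). The count of 3 was 1 without 1-week libraries 1 or 2 or 5-week libraries 1 or 2. Cpr49Ae was at 12.8, 12.7, 9.33 and 26.5 CPM at 1 week and 1.18, 1.87, 1.93 and 0.7603 CPM at 5 weeks. 1-week library 4 was the highest, and older levels were all low (log2 fold change −3.39 ± 0.39, adjusted p = 0.00125). The others, Cpr47Ef (log2 fold change −2.58 ± 0.68, adjusted p = 0.0423) and Cpr76Bd (log2 fold change −1.17 ± 0.29, adjusted p = 0.0341), had calls that rested on 1-week libraries 1, 2 and 3 and 5-week libraries 1, 2 and 3 (adjusted p 0.0521 to 0.111) and on 1-week libraries 1, 2 and 4 and 5-week libraries 1, 2, 3 and 4 (adjusted p 0.0540 to 0.0964).

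Among secreted and transport proteins, the serpin gene Spn88Eb was at 174, 271, 319 and 195 CPM at 1 week and 565, 856, 483 and 554 CPM at 5 weeks and rose 2.56-fold (log2 fold change 1.36 ± 0.23, adjusted p = 0.00799). Of 13 odorant and pheromone binding genes tested, 2 rose and 2 fell (4 and 3 in DESeq2, 0 to 3 higher and 1 to 3 lower with 1 library left out), with a median of 0.51. One that fell, the odorant-binding protein gene Obp83cd, went from 13.4 ± 2.83 to 5.47 ± 1.999 CPM (log2 fold change −1.30 ± 0.25, adjusted p = 0.0137). Of 34 ion and solute carrier genes, 3 rose and 1 fell (5 and 3 in DESeq2, 2 to 5 higher and 1 to 2 lower with 1 library left out), against 5.21% and 3.7% of all genes tested. The zinc transporter gene Zip89B was at 2.42, 1.93, 1.85 and 1.92 CPM at 1 week and 12.7, 9.54, 6.95 and 4.07 CPM at 5 weeks. The older libraries were spread but all higher (log2 fold change 2.02 ± 0.31, adjusted p = 0.00503). The copper importer gene Ctr1B was at 3.55, 3.92, 3.39 and 3.68 CPM at 1 week and 7.96, 8.77, 9.53 and 7.47 CPM at 5 weeks. Both ages had little spread (log2 fold change 1.22 ± 0.14, adjusted p = 0.00137). Of the Ctr1B exon bases, 19.4% lie in another annotated gene on the same strand. The amino acid transporter gene Eaat2 fell from 3.199 ± 1.37 to 0.936 ± 0.136 CPM (log2 fold change −1.78 ± 0.34, adjusted p = 0.0131).

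Some DNA replication and cell cycle genes rose. Of 34 tested, 7 rose and 0 fell in the edgeR test (13 higher and 1 lower at p under 0.05 before adjustment, 12 and 0 in DESeq2), with a median of 0.30. The count of 7 was 3 without 1-week libraries 2 or 3 or 5-week library 1, 4 without 1-week library 1 or 5-week library 2, and 10 without 5-week library 4. RnrL, the large subunit of ribonucleotide reductase, was at 11.4, 9.95, 9.78 and 8.32 CPM at 1 week and 40.7, 27.1, 21.1 and 31.6 CPM at 5 weeks. 5-week library 1 was the highest (log2 fold change 1.61 ± 0.19, adjusted p = 0.00155). Mcm2, of the replicative helicase, was at 4.68, 2.704, 4.98 and 3.87 CPM at 1 week and 20.4, 12.8, 6.83 and 18.9 CPM at 5 weeks. 5-week library 3 was the nearest to the younger set (log2 fold change 1.85 ± 0.33, adjusted p = 0.00886). PCNA, the polymerase clamp, was at 0.878, 0.2596, 0.549 and 0.672 CPM at 1 week and 2.86, 4.99, 2.54 and 1.77 CPM at 5 weeks. All older libraries were higher, library 2 most (log2 fold change 2.36 ± 0.45, adjusted p = 0.0121). CycA and Cdk1, which drive mitosis, also rose. CycA went from 1.66 ± 0.252 to 6.97 ± 6.098 CPM (log2 fold change 2.08 ± 0.51, adjusted p = 0.0330) and Cdk1 from 0.162 ± 0.0718 to 1.22 ± 1.12 CPM (log2 fold change 2.86 ± 0.72, adjusted p = 0.0354). Their calls rested on 1-week libraries 1, 2 and 3 and 5-week libraries 1 and 2 (adjusted p 0.0526 to 0.0999) and on 1-week libraries 1, 2, 3 and 4 and 5-week libraries 1 and 2 (adjusted p 0.0591 to 0.117), and their log2 fold changes were 1.26 and 1.99 without 5-week library 2. Ovary and germline transcripts were also higher at 5 weeks. Their sum over 19 markers was 99.3, 93.1, 98.00 and 116 CPM at 1 week and 144, 269, 133 and 128.2 CPM at 5 weeks, highest in 5-week library 2. Of 12 of these markers with enough counts, 3 rose and 0 fell in the edgeR test (7 higher and 0 lower at p under 0.05 before adjustment, 8 and 0 in DESeq2). The count of 3 was 0 without 1-week libraries 1, 2 or 3, 1 without 5-week libraries 1 or 2, 5 without 5-week library 3, 6 without 5-week library 4 and 7 without 1-week library 4. RpS5b was at 0.394, 0.389, 0.492 and 1.41 CPM at 1 week and 4.27, 33.8, 5.14 and 1.88 CPM at 5 weeks. 5-week library 2 was far above the others (log2 fold change 4.15 ± 0.92, adjusted p = 0.0228; 2.52 without 5-week library 2, resting on 1-week libraries 1, 2 and 3, adjusted p 0.0639 to 0.0833). yl, the yolk receptor of the oocyte, named after its values were seen, was at 0.179, 0.281, 0.114 and 0.993 CPM at 1 week and 2.27, 15.96, 2.95 and 1.07 CPM at 5 weeks. The same library stood out (log2 fold change 3.93 ± 0.95, adjusted p = 0.0314, resting on 1-week libraries 1, 2 and 3 and 5-week libraries 1 and 2, adjusted p 0.0514 to 0.104). PCNA, like the summed germline markers, was highest in 5-week library 2, while RnrL and Mcm2 were highest in 5-week library 1. The part of germline RNA in the rise of the replication genes was not tested.

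Some of the largest changes were in genes outside the lists. Arc1, whose protein forms virus-like capsids and is known from neurons and fat metabolism (chromosome 2R from 14357927 to 14360297), was at 1345, 966, 1212 and 743 CPM at 1 week and 4394, 3304, 3251 and 3226 CPM at 5 weeks. 5-week library 1 was the highest, and the other older ones were alike (log2 fold change 1.73 ± 0.20, adjusted p = 0.00127). CG9512, of the glucose-methanol-choline oxidoreductase family (chromosome X from 14901844 to 14905549), was at 388, 398, 279.9 and 292 CPM at 1 week and 1097, 1069.6, 1122 and 1017 CPM at 5 weeks. The older libraries hardly differed (log2 fold change 1.66 ± 0.15, adjusted p = 3.4e-04). CG33970 (oskyddad), an ABC transporter gene of barrier tissues, was at 1.09, 0.519, 0.681 and 0.864 CPM at 1 week and 30.3, 22.3, 28.3 and 30.4 CPM at 5 weeks. All older libraries were far above the younger ones, and the adjusted p was the smallest of the genes named here (log2 fold change 5.13 ± 0.23, adjusted p = 4.1e-06). CG10814 was at 4.25, 10.8, 9.42 and 8.901 CPM at 1 week and 161, 233, 88.7 and 163 CPM at 5 weeks. 5-week library 3 was the lowest older one, still far above the younger set (log2 fold change 4.28 ± 0.36, adjusted p = 3.1e-04). CG43085 was at 4.95, 5.08, 4.26 and 2.43 CPM at 1 week and 32.1, 68.5, 11.1 and 43.7 CPM at 5 weeks. Library 3 was again the lowest at 5 weeks (log2 fold change 3.21 ± 0.48, adjusted p = 0.00440). Klf15, a nephrocyte transcription factor named after its values were seen, was at 5.61, 3.66, 3.501 and 15.1 CPM at 1 week and 67.6, 32.4, 17.05 and 45.4 CPM at 5 weeks. 1-week library 4 was just below 5-week library 3 (log2 fold change 2.56 ± 0.53, adjusted p = 0.0190). The call rested on 1-week libraries 1, 2 and 3 and 5-week library 1 (adjusted p 0.0501 to 0.0658), and the summed nephrocyte markers overlapped between the ages.

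Downward, Whamy, which promotes actin assembly, was at 65.6, 50.7, 80.1 and 14.66 CPM at 1 week and 7.32, 12.4, 6.16 and 4.58 CPM at 5 weeks. 1-week library 4 was close to the older set (log2 fold change −2.79 ± 0.48, adjusted p = 0.00798). CG13091, of the fatty acyl-CoA reductase family, was at 593, 716, 526 and 1121 CPM at 1 week and 271, 172, 235 and 384 CPM at 5 weeks. Here 1-week library 4 was the highest (log2 fold change −1.48 ± 0.29, adjusted p = 0.0140). CG43156 was at 16.3, 31.1, 22.4 and 25.8 CPM at 1 week and 1.46, 2.83, 1.402 and 4.65 CPM at 5 weeks. The ages were far apart (log2 fold change −3.19 ± 0.37, adjusted p = 0.00141). The long non-coding RNA gene CR43855 was at 19.3, 11.2, 15.3 and 14.3 CPM at 1 week and 2.36, 2.08, 1.58 and 0.984 CPM at 5 weeks. 1-week library 1 was the highest (log2 fold change −3.12 ± 0.27, adjusted p = 3.2e-04). The immediate early genes sr (stripe, 52.95 ± 8.62 to 25.3 ± 6.58 CPM, log2 fold change −1.07 ± 0.20, adjusted p = 0.0111) and Jra (Jun, 385 ± 67.7 to 206 ± 46.9 CPM, log2 fold change −0.90 ± 0.20, adjusted p = 0.0224), listed as signs of stress during handling and named after their values were seen, also fell. The Jra call rested on 1-week libraries 1, 2 and 3 and 5-week library 1 (adjusted p 0.0529 to 0.0708). The list of stress genes as a whole was mixed. Of 13 tested, 2 fell and 0 rose in the edgeR test (4 higher and 6 lower at p under 0.05 before adjustment, 1 and 5 in DESeq2). Their log2 fold changes were negative for 7 and positive for 6, with a median of −0.02. The heat-induced gene Hsp68 did not pass (log2 fold change 0.46 ± 0.20, adjusted p = 0.168).

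The size of the age effect was compared with that in attp2 hearts by an interaction of strain and age over 18 libraries. The strains were deposited in separate tables, so strain and table cannot be told apart, and the interaction tests only the difference between their age effects. Of 10387 genes, 79 passed (0.761%), 50 with a more positive and 29 with a more negative effect in w1118. The count was between 11 (without w1118 1-week library 2) and 271 (without w1118 1-week library 4) when single libraries were left out. CG7409, the small heat shock protein gene, had effects of opposite sign. It was at 3.86, 5.52, 3.49 and 8.31 CPM at 1 week and 1.25, 1.47, 1.404 and 0.735 CPM at 5 weeks in w1118, and at 1.18, 0.571, 1.23, 1.32 and 1.101 CPM and 1.899, 4.598, 2.06, 3.03 and 4.595 CPM in attp2, on the scale of the joint fit. The w1118 effect was −2.12 ± 0.37 and the attp2 effect 1.58 ± 0.33, a difference of −3.70 ± 0.50, adjusted p = 0.00405. CG42795 was at 4.900, 4.101, 2.59 and 3.796 CPM and 45.4, 30.5, 46.9 and 34.9 CPM in w1118, all older libraries being higher, and at 1.57, 1.46, 1.08, 0.696 and 1.71 CPM and 0.799, 1.77, 1.24, 2.72 and 2.51 CPM in attp2, where the ages overlapped (difference 2.88 ± 0.46, adjusted p = 0.0102). These 2 calls held without each of the 18 libraries. Drsl5 reached 0.7101, 2.57, 0.998, 4.61 and 5.37 CPM in attp2 at 5 weeks (difference 3.71 ± 0.80, adjusted p = 0.0425), but 14 of 18 single libraries ended that call (adjusted p up to 0.0996). Men, malic enzyme, which makes NADPH, differed by 1.31 ± 0.24, adjusted p = 0.0289, with effects of 0.58 ± 0.18 in w1118 and −0.73 ± 0.16 in attp2, and 6 libraries ended the call (up to 0.0645). In the edgeR test of w1118 alone Men did not pass (adjusted p = 0.0717). Keap1 differed by −0.96 ± 0.18, adjusted p = 0.0289, with 4 libraries ending it (up to 0.0698). The differences of Set1 (−0.73 ± 0.15, adjusted p = 0.0358), AlaRS (−0.58 ± 0.12, adjusted p = 0.0340) and Dark (−0.53 ± 0.11, adjusted p = 0.0301) were smaller, and 12, 10 and 9 single libraries ended their calls (up to 0.0950, 0.0900 and 0.0726). The effects in w1118 and attp2 were −0.15 ± 0.11 and 0.57 ± 0.10 for Set1, −0.31 ± 0.09 and 0.27 ± 0.08 for AlaRS, and −0.36 ± 0.08 and 0.17 ± 0.07 for Dark. In the edgeR test of w1118 alone Set1 did not pass (adjusted p = 0.619). For PPO2, Mhc, RyR, kek1, Fer2LCH and PGRP-SB1 the interaction did not pass (adjusted p 0.703, 0.924, 0.5798, 0.209, 0.401 and 0.478), which does not show that the effects were equal.

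The calls were not even across gene length. Among genes of at least 10 CPM, the group with the shortest exons of 5 equal groups (198 to 1277 bases) had 114 genes that rose and 19 that fell, of 1179, and the group with the longest exons (4598 bases and more) had 32 and 80 of 1178. The median level of the group with the longest exons, as log2(CPM + 1) against the 1-week mean, was 0.05, 0.04, 0.07 and −0.13 at 1 week and −0.27, −0.10, −0.11 and 0.03 at 5 weeks. Library 4 of each age lay on the side of the other age, and 5-week library 1, the shallowest, was the lowest. Mhc, Unc-89 and RyR are long and the antimicrobial peptide genes short, so length moves with these groups, and its part in them was not tested. By chromosome, 8.19% of genes on X to 9.31% on 3R were called. Of 425 non-coding RNA genes tested, 17 rose and 9 fell, and of 9109 protein-coding genes 482 rose and 345 fell. Some genes named above share exon bases with another annotated gene, among them Jheh3 (49.5%), ImpL2 (61.9%), Pal2 (25.7%), crq (15.7%), vari (15.2%), Treh (12.8%), BomBc2 (12.4%), He (11.6%), sei (10.95%), l(2)efl (10.1%) and Obp83cd (10.2%). Their levels are uncertain, since no source used here gives the strand setting of the counting, and by how much depends also on the level of the other gene. That level was the higher for He (4.26 against 69.0 CPM), sei (10.9 against 24.4 CPM), vari and Obp83cd. It was the lower for crq, Treh, BomBc2, l(2)efl and Pal2. For Jheh3 and ImpL2 no level of the other gene was available.

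**Figure D5:**
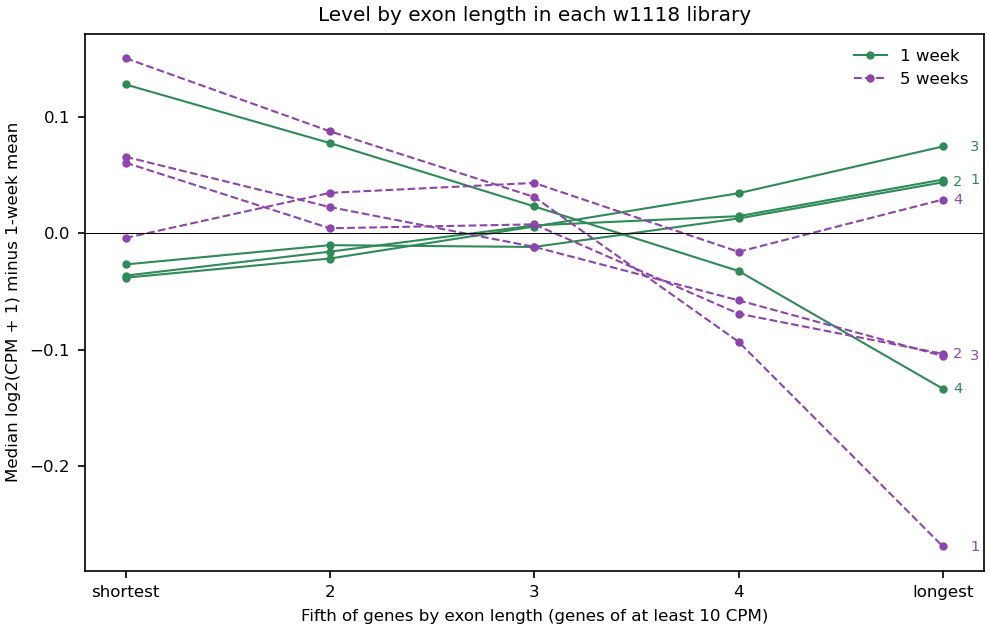
Median of log2(CPM + 1) minus its 1-week mean for genes of at least 10 CPM, by group of exon length (5 equal groups, shortest to longest), 1 line a library (1 week solid green, 5 weeks dashed purple, library number at the right end). In the group with the longest exons 5-week library 1 is lowest, at −0.27, and library 4 of each age lies among the libraries of the other age.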

How the data were processed

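The authors deposited a table of read counts per gene for the w1118 hearts, with log2 values beside them, and another such pair for attp2 and Lamin C RNAi hearts. Per the labels' protocols, hearts were flash-frozen in Quizol, RNA was extracted with miRNeasy and libraries were made with TruSeq Stranded mRNA. The build dm6 and the tools cutadapt, STAR and DESeq2 are named, without versions, per the submitters' processing notes. On the counting program, its strand setting and the annotation nothing is given in the sources used here. Each deposited log2 value is log2(count / factor + 1), with 1 factor for each of the 23 libraries, and these values were not used further. Of 17103 gene symbols, 13263 matched a current and 3690 an older symbol of the BDGP6.54 annotation, which supplied positions and exon lengths.

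Counts were normalised with TMM, filtered with filterByExpr, which kept 9631 genes, and compared by quasi-likelihood in edgeR 4.0.16 (R 4.3.3) on the 8 w1118 libraries with age as the only term, with Benjamini-Hochberg adjustment and a threshold of 0.05. SE is the log2 fold change divided by the root of the F statistic. The strain comparison fitted strain, age and their interaction to 18 libraries. Only the edgeR fit of age in w1118 was tested on simulated counts with known changes. The strain comparison and the alternatives were not, and the simulated counts held no shift shared within a library. No library was a repeat of another, since the smallest chi-square per gene between libraries of one age was 65.3. Precision is limited by the 4 libraries at each age, and single CPM values carry counting error besides.

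Members and the 55 gene lists, 13 marker lists and 1 list of stress genes were chosen with earlier results of these data known, and the pattern for UDP-glycosyltransferase symbols was corrected after the files were seen. Genes named are those that passed with the ages apart and that had the 12 largest log2 fold changes in a direction at a mean of 5 CPM or more, the 10 largest CPM differences, or up to 5 places in a direction in a list, with up to 3 further members of each list that had most counts. Genes outside this rule, chosen after their values were seen, are so marked in the text or are Prx2540-2, unc-5, lz, NimC1, eater, Socs36E, TotA, Hsp68, Act88F, fln, TpnC4, Doc2 and roX1. Alternatives were the size factors of DESeq2, DESeq2 1.42.0 itself, no filter on low counts, a minimum mean of 5 CPM, the replicate number as a block and each library left out in turn.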

Additional observations from a re-analysis of the deposited data

Results flagged for a closer look

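Among the genes named, a single library of an age stood apart from the other 3 of its age (by Dixon's test at its 95% critical value) in 26 of 354 sets of 4 values. The library apart was library 4 of its age in 15 of these, the library that also lay apart on the second principal component. Chance alone gives about 1 in 20, but the sets include genes chosen after their values were seen. Act88F, fln, TpnC4, lz, unc-5, Jra, yl, TotA and roX1, all flagged, are among those genes, so neither count can be set against chance.

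In 1-week library 4 the values that stood apart were those of TpnC4 (2.02 against 0 to 0.173 CPM), fln (3.87 against 0 to 0.208 CPM), Act88F (11.6 against 0.389 to 0.968 CPM), Col4a1 (1653 against 1837 to 1859 CPM), GstD5 (16.8 against 6.08 to 6.85 CPM), RpS5b (1.41 against 0.389 to 0.492 CPM), Treh (530.1 against 352 to 378 CPM), lz (2.79 against 6.32 to 6.94 CPM), sty (129 against 182 to 191 CPM) and vari (162 against 194 to 199 CPM). In 5-week library 4 they were those of Act88F (1.59 against 0.6502 to 0.728 CPM), AlaRS (118 against 139 to 139.7 CPM), Jra (136 against 219.6 to 235 CPM), Keap1 (56.04 against 83.6 to 86.8 CPM) and unc-5 (1.32 against 0.682 to 0.752 CPM). In 5-week library 2, the library with the most germline transcripts, they were those of RpS5b (33.8 against 1.88 to 5.14 CPM), UQCR-C2 (250.3 against 310.4 to 319 CPM) and yl (15.96 against 1.07 to 2.95 CPM). 5-week library 1 stood apart for Arc1 (4394 against 3226 to 3304 CPM). 5-week library 3 stood apart for roX1 (3.78 against 7.19 to 7.55 CPM). 1-week library 1 stood apart for Act87E (212 against 176 to 179 CPM), Zip89B (2.42 against 1.85 to 1.93 CPM) and roX1 (7.82 against 5.22 to 5.56 CPM). 1-week library 2 did so for TotA (226 against 86.9 to 97.1 CPM). 1-week library 3 was apart for Ant2 (3.35 against 3.97 to 4.03 CPM) and PGRP-SC1b (2.27 against 0.151 to 0.352 CPM).

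The age effect differed between the strains, by the interaction of strain and age in edgeR with Benjamini-Hochberg adjustment, for 8 of the genes named. The difference in log2 fold change, w1118 minus attp2, was −0.58 for AlaRS (adjusted p = 0.0340), 2.88 for CG42795 (adjusted p = 0.0102), −3.70 for CG7409 (adjusted p = 0.00405), −0.53 for Dark (adjusted p = 0.0301), 3.71 for Drsl5 (adjusted p = 0.0425), −0.96 for Keap1 (adjusted p = 0.0289), 1.31 for Men (adjusted p = 0.0289) and −0.73 for Set1 (adjusted p = 0.0358). Those of CG42795 and CG7409 kept their calls without each of the 18 libraries in turn.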

How the results depend on the processing

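The numbers of genes that rose and fell were 502 and 356 in the edgeR test. With DESeq2 they were 830 and 682, and the interaction with strain gave 403 genes in place of 79. When single libraries were left out, the genes that rose numbered 174 to 578, those that fell 124 to 512, and those of the interaction 11 to 271. The lowest count came without 1-week library 2 in each case, for which the cause was not tested. The size factors of DESeq2 gave 472 and 373 genes, no filter on low counts 450 and 386, and a minimum mean of 5 CPM 438 and 298. Without library 4 of both ages, an alternative chosen after seeing the data, the counts were 542 and 528. Of 138 named genes that passed, 71 passed under every alternative listed with the methods in which they were tested. Without some library 67 lost the call, and under another setting 16 did. Genes with a mean under 5 CPM, such as Tep1, were not tested in the alternative with that minimum. None of these 138 genes changed direction under any alternative in which it was tested. Changes of direction were not checked for the named genes that did not pass. With the replicate number as a block the counts were 509 and 389. The block was no pairing by design: same-numbered libraries of the 2 ages deviated from their means with correlations of 0.0573, −0.00889, −0.00856 and 0.154, and not every library correlated best with its own number. Of the named genes that passed, 16 did not pass with the block. Levels of a few CPM rest on few counts, fewest in 5-week library 1.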
